A study of Mus musculus with 21 samples.

Results

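The genes described here are 43 members of the amino acid stress response that is governed by the transcription factor ATF4, of the one-carbon and serine pathways, and of the cytosolic aminoacyl-tRNA synthetases. They were taken by name from the table of all genes and by no threshold on values, though the list was drawn up with earlier results of these data known, and make up 43 of the 47643 genes counted. Of these, 40 had at least 10 counts over all libraries, the limit below which a gene was not tested (15300 of all genes passed it). The remaining members were Chac1, a glutathione-degrading enzyme, with 8 counts in all, Cth, the enzyme that makes cysteine from cystathionine, with 6, and Aldh1l2, a mitochondrial folate enzyme, with 0.

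Libraries came from CD4+ T cells of the spleen of Tg4 Nr4a3-Tocky Il10-GFP (Tiger) mice. In these mice the T cells carry the transgenic Tg4 receptor for a peptide of myelin basic protein (MBP), and the Nr4a3 gene drives a fluorescent Timer protein whose fresh form is Blue and whose matured form is Red, so that cells can be sorted by how recently their receptor signalled. All 7 groups carried these alleles and each held 3 mice, from a study that used both sexes. Cells of each replicate mouse were labelled with a CD4 antibody of a different colour, so that replicates could be sorted side by side. Control mice were untreated, and the others received 0.8 µg or 80 µg of the [4Y] MBP peptide under the skin without adjuvant and were taken after 4 h, 12 h or 24 h. From immunised mice, cells with Blue but no Red fluorescence were sorted at 4 h, cells with both colours at 12 h, and cells that were Red and no longer Blue at 24 h. The gate therefore moves with time, and a time cannot be told apart from its gate, nor peptide from gating in a comparison with control. A Nr4a3 gate also takes only cells whose receptor had signalled past the reporter's threshold, at either dose.

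ATF4 is translated when the initiation factor eIF2 is phosphorylated, as happens in amino acid shortage and endoplasmic reticulum stress, and it then switches on genes for amino acid uptake and synthesis, for charging of transfer RNAs and for stress adaptation. One-carbon metabolism moves carbon units from serine onto folate, in the mitochondrion through SHMT2, MTHFD2 and MTHFD1L, and feeds the making of purines, thymidylate and glycine, for which dividing T cells have a high demand. Aminoacyl-tRNA synthetases join each amino acid to its transfer RNA, and separate sets of them serve the cytosol and the mitochondrion.

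ATF4 binds, mostly as a dimer with a C/EBP factor, to sites related to TGATGCAA. Promoter sequence was at hand for 33 members, a few with more than 1 annotated start, from RefSeq on GRCm38.p6, as windows of 250 bases before to 50 bases after each annotated start. The letters TGATGNAA were found on either strand in the windows of 10 members (Chac1, Trib3, Asns, Pycr1, Got1, Aars, Gars, Iars, Tars and Yars), while 1304 of 32851 promoters of the same length (3.97%) held them. The stricter TGATGCAA, which is contained in the first motif, was found in 7 members (Chac1, Pycr1, Got1, Aars, Iars, Tars and Yars) and in 294 of all promoters (0.895%). The members and the motif were both chosen with knowledge of the pathway, and a match is a string of letters and not a bound site. The absence of a match says only that these letters were not in the window. The windows of 4 synthetases are shown, 1 of them with a pair of matches, beside those of Asns, which makes asparagine, and Trib3, a pseudokinase that acts on ATF4. Each is given 5′ to 3′ along the gene's strand from 150 bases before the start to 30 bases from the start on, with the motif in capitals in either orientation.

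Aars, chr8:111033692-111033871, plus strand: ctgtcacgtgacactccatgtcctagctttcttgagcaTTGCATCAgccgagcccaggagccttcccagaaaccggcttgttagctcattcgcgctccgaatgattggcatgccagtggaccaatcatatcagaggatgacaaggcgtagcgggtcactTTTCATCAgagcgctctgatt
Gars, chr6:55037851-55038030, plus strand: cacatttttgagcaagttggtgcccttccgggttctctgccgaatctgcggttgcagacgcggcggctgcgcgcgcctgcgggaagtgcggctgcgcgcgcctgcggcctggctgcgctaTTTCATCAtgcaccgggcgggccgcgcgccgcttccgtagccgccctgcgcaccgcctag
Iars, chr13:49681980-49682159, plus strand: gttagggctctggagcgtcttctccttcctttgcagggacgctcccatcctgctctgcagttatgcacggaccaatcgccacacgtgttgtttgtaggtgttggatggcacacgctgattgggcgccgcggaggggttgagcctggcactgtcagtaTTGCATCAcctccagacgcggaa
Tars, chr15:11399629-11399808, minus strand: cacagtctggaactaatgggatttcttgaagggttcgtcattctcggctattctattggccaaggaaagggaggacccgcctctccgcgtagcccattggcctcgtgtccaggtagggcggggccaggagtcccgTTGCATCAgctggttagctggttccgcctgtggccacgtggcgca
Asns, chr6:7693180-7693359, minus strand: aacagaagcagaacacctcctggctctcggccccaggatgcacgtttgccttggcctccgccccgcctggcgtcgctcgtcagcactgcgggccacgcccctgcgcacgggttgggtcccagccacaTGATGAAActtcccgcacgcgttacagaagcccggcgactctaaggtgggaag
Trib3, chr2:152344031-152344210, minus strand: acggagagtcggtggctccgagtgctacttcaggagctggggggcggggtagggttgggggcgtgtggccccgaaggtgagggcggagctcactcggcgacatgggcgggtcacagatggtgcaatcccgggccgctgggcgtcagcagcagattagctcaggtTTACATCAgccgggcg

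In Aars, the alanyl-tRNA synthetase, the matches began at -112 and at 10, counting the start as base 1, and in Gars, Iars and Tars, the glycyl-, isoleucyl- and threonyl-tRNA synthetases, they began at -30, 8 and -15. Of the 10 members with the motif, 7 were called higher than control at 4 h at both doses and 1, Trib3, was called lower. Of the 23 without it, 13 were called higher and 1, Ddit4, lower at both doses. Genes without a match thus included several of the largest increases, Psat1 and Shmt2 among them. At the single doses of 0.8 µg and 80 µg, 17.3% and 18.4% of all genes tested were called higher at 4 h, and 23.4% and 25.1% lower. Cth, Aldh1l2, Cars, Hars, Lars, Mars, Nars, Rars, Vars and Wars had no entry in the promoter table.

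Libraries held 2352800 to 6244279 counts each, so that the floor of 3 counts used here corresponds to between 0.480 and 1.28 CPM (counts scaled to a common library total). Of the counts, 17.0% to 27.8% lay in the single gene Gm42418 and 5.00% to 9.44% in mitochondrial genes. The mitochondrial share was 7.26% to 7.52% in control and 8.22% to 9.44% at 24 h. In the libraries of 4 h and 12 h, the times at which most members were highest, it was lowest, at 5.00% to 6.48%. Its part in the results was not tested. The 7 T cell markers examined, Cd3e and Cd4 among them, were found in every group. Summed over the list they reached 2031 to 2312 CPM in control libraries and 703 to 824 at 80 µg and 4 h. The 8 B cell markers summed to 404 to 467 CPM in control, to 38.0 to 128 in the libraries of 4 h and 12 h, and to 287 to 417 at 24 h, so they were lowest at the times at which most members were highest, and their part in the results was not tested. Markers of CD8 T and NK cells summed to 16.6 to 75.3 in all libraries, those of monocytes, macrophages and neutrophils to 2.08 to 37.1, those of red cells to 5.31 to 212, those of platelets to at most 5.53 and those of dendritic cells to at most 3.25. In bulk samples fewer cells of a type and less RNA per cell cannot be told apart. The p-values below set a difference against the spread between mice of the same group. This spread was estimated per gene over all groups fitted together, and not from the 3 mice of each compared group alone, unless stated.

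**Figure D1:**
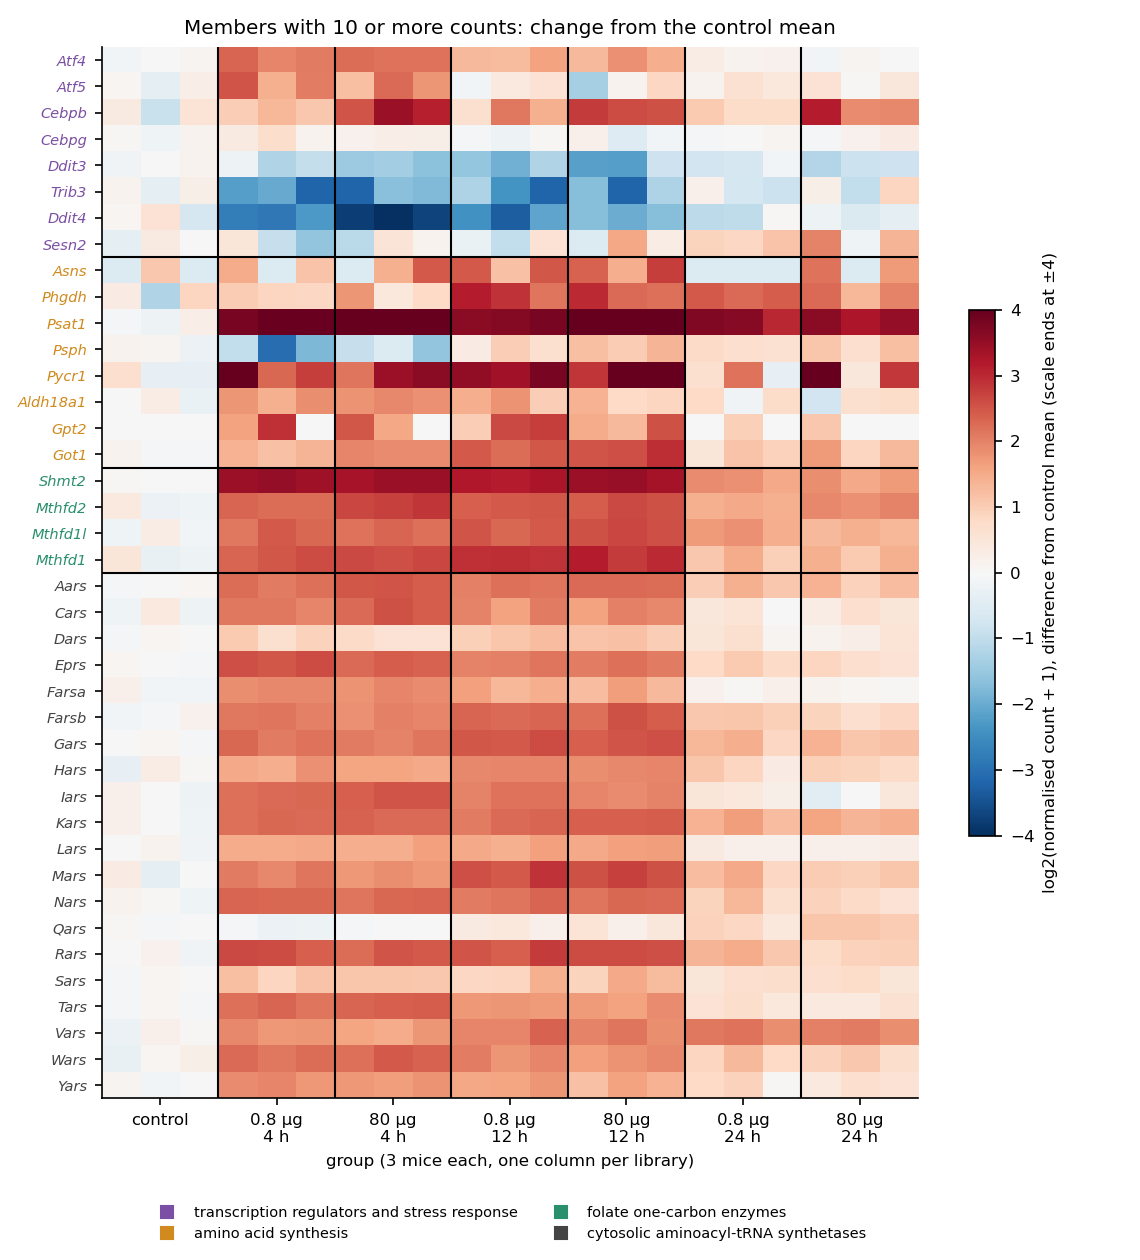
Each row is 1 of the 40 members with at least 10 counts, grouped by role, and each column 1 of the 21 libraries. Colour gives the log2 of the normalised read count plus 1, less the mean of the 3 control libraries, with the scale ending at 4 in either direction. The synthetase and folate rows are above control in the 12 libraries of 4 h and 12 h, except Qars, and nearer to it at 24 h, while Ddit3, Trib3 and Ddit4 are below control at 4 h and 12 h.

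Against control, more members were called higher than lower at every time and with both doses, and most at 4 h and 12 h. A gene was called when its adjusted p was under 0.05 and its log2 fold change, shrunk towards 0 by DESeq2, was above 1 in size. With 0.8 µg, 28 of 40 members tested were called higher and 3 lower at 4 h, where 17.3% and 23.4% of all genes tested were called higher and lower. At 12 h the counts were 31 and 3 of 40, against 17.2% and 20.5% of all genes. At 24 h they were 14 and 0 of 39, against 11.5% and 5.84%.

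With 80 µg the counts were close to these. At 4 h 29 of 40 members were called higher and 3 lower, beside 18.4% and 25.1% of all genes. At 12 h 31 were higher and 3 lower, beside 17.8% and 20.1%. At 24 h 15 were higher and 0 lower, beside 12.3% and 7.91%, and Ddit3 passed as lower there by the adjusted p alone. Under scaling to library totals Ddit3 was called lower there (-1.09, adjusted p = 0.00194), and the counts were 13 higher and 1 lower. Of members lower at 24 h, DESeq2 gave 0 with 0.8 µg and 1 with 80 µg at an unadjusted p under 0.05, and edgeR called 0 at either dose. The median log2 fold change of the members tested was 1.95, 1.92 and 0.78 at 4 h, 12 h and 24 h with 0.8 µg, and 1.89, 1.91 and 0.86 with 80 µg. With Gpt2, which was at 0 in control, set to its bound against the floor of 3 counts, it was 1.89 at 12 h with 0.8 µg, and without Gpt2 it was 0.87 at 24 h with 80 µg. That of all genes tested lay between -0.15 and 0.00 in these comparisons. The 6 comparisons share the same 3 control mice and are not independent of each other.

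Most of the members called higher were enzymes. Of the 20 cytosolic synthetases 18, 19 and 8 were called higher at 4 h, 12 h and 24 h with 0.8 µg, and 18, 19 and 6 with 80 µg, and all 4 folate enzymes tested were called higher in all 6 comparisons. Among the folate calls, that of Mthfd1 at 24 h with 0.8 µg was lost without single libraries (0.97). Of the 8 regulators tested, 2, 2 and 0 were higher and 2, 3 and 0 lower with 0.8 µg, and 3, 2 and 1 were higher and 3, 3 and 0 lower with 80 µg, and the 2 higher and 2 lower at 4 h with 0.8 µg are near the 17.3% and 23.4% of all genes. The median log2 fold change of the regulators lay between -0.11 and 0.20.

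Atf4 itself (ENSMUSG00000042406, chr15:80255184-80257541 on GRCm38, plus strand) rose at 4 h and was back near control at 24 h. Its normalised read counts were 382, 413 and 439.7 in the control libraries. They were 2074, 1579 and 1749 at 4 h with 0.8 µg and 1953, 1867 and 1858 with 80 µg. All 6 libraries of 4 h lay above all other libraries. At 12 h the counts were 1020.5, 982 and 1254 with 0.8 µg and 1008, 1452 and 1124 with 80 µg. At 24 h they were 503, 453 and 461 with 0.8 µg and 378, 448 and 409.8 with 80 µg. The log2 fold change against control was 2.12 ± 0.13, adjusted p = 9.78e-59 at 4 h with 0.8 µg and 2.19 ± 0.13, adjusted p = 5.86e-63 with 80 µg, that is, 4.36-fold and 4.57-fold. At 24 h it was 0.20 ± 0.13, adjusted p = 0.247 with 0.8 µg and 0.01 ± 0.13, adjusted p = 0.98 with 80 µg. The dose groups of Atf4 overlapped at 4 h and 12 h and not at 24 h, and the difference between 80 µg and 0.8 µg had 95% intervals of -0.17 to 0.31, -0.10 to 0.39 and -0.45 to 0.06 on the unshrunken log2 scale at the 3 times. This is the level of the transcript, while ATF4 activity is set largely by translation, which was not measured.

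The related bZIP factors behaved in different ways. Atf5, a relative of ATF4, was called higher at 4 h only, at 30.3 to 65.6 normalised counts with 0.8 µg and 25.5 to 55.2 with 80 µg against 8.11 to 12.8 in control (2.04 ± 0.47, adjusted p = 4.65e-05, and 1.80 ± 0.47, adjusted p = 0.000356). It fell again from 4 h to 12 h by 1.73 with 0.8 µg and by 1.69 with 80 µg on the log2 scale. Cebpg, a dimer partner of ATF4, was called in 0 of the 6 comparisons with control, and passed by the adjusted p alone at 4 h with 0.8 µg (adjusted p = 0.0492), with log2 fold changes between -0.12 and 0.41.

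Cebpb (ENSMUSG00000056501, chr2:167688915-167690418, plus strand), another C/EBP partner and a target of stress signalling, was the member that differed most plainly by dose. Control libraries held 6.18, 2.03 and 7.14 normalised counts, which rest on 6, 2 and 5 raw counts. With 0.8 µg it reached 10.1, 13.2 and 10.8 at 4 h, 7.84, 23.3 and 14.1 at 12 h and 10.7, 8.39 and 8.26 at 24 h. With 80 µg it reached 31.3, 61.0 and 47.2 at 4 h, 38.4, 33.0 and 32.1 at 12 h and 48.2, 19.9 and 20.3 at 24 h. Every library of 80 µg lay above every library of 0.8 µg taken at the same time. Against control, the log2 fold change with 80 µg was 2.97 ± 0.52, adjusted p = 8.48e-08 at 4 h, 2.56 ± 0.52, adjusted p = 5.26e-06 at 12 h and 2.31 ± 0.52, adjusted p = 7.36e-05 at 24 h. With 0.8 µg it was called at 12 h only (1.45 ± 0.54, adjusted p = 0.0149), a call that was lost without control replicate 2 (adjusted p = 0.112) or without 0.8 µg 12 h replicate 2 (adjusted p = 0.156). This call was lost also with only the 6 libraries compared (1.48, adjusted p = 0.0814).

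Other stress genes of the list went down. Ddit3, which encodes the CHOP factor of endoplasmic reticulum stress, fell from 108 to 129.9 normalised counts in control to 30.8 to 50.5 with 0.8 µg and 24.9 to 66.1 with 80 µg at 12 h (-1.52 ± 0.32, adjusted p = 7.56e-06, and -1.58 ± 0.32, adjusted p = 2.79e-06). It was called lower at 4 h with 80 µg (-1.47 ± 0.32, adjusted p = 1.39e-05), while with 0.8 µg the log2 fold change was -0.71 ± 0.31, adjusted p = 0.0434. Without 0.8 µg 4 h replicate 1 Ddit3 was called lower at 4 h with 0.8 µg too (-1.06, adjusted p = 0.00531). The last 68 bases of Ddit3 and of Mars, the methionyl-tRNA synthetase, overlap on opposite strands, and the strand setting of the counting was not stated, so reads from this stretch cannot be assigned to either gene with certainty. Ddit3 and Mars moved in opposite directions. Trib3 held 9, 6 and 7 raw counts in the control libraries, 1, 1 and 0 at 4 h with 0.8 µg and 0, 2 and 2 with 80 µg, and was called lower at 4 h and 12 h at both doses, with adjusted p between 0.0186 and 0.0396. No fold is given at such counts. The call of Trib3 at 4 h with 0.8 µg was lost without 0.8 µg 4 h replicate 3 (adjusted p = 0.0725). The other 3 of these calls were lost without control replicate 1 or 3, and each also without single immunised libraries (all 3 of 80 µg 4 h, replicates 2 and 3 of 0.8 µg 12 h, replicates 1 and 2 of 80 µg 12 h), with adjusted p up to 0.162. At 24 h Trib3 stood at 10, 5 and 4 raw counts with 0.8 µg and 9, 5 and 26 with 80 µg. Sesn2, a stress-induced inhibitor of mTORC1, was called in 0 of the 6 comparisons with control, with adjusted p between 0.119 and 1 and raw counts between 2 and 38 per library. Without 80 µg 24 h replicate 2 Sesn2 was called higher at 24 h with 80 µg (1.56, adjusted p = 0.0426).

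Ddit4 (ENSMUSG00000020108, chr10:59949669-59951834, minus strand), whose product REDD1 restrains mTORC1, fell furthest of all members. The control libraries held 907, 1288 and 538 normalised counts. At 4 h the counts were 125, 116 and 173 with 0.8 µg and 62.5, 18.4 and 64.3 with 80 µg. At 12 h they were 159, 86.5 and 198 with 0.8 µg and 260.4, 218 and 261 with 80 µg. The doses changed their order between these times, since all libraries of 80 µg were below those of 0.8 µg at 4 h and above them at 12 h. At 24 h they were 418, 421 and 889.9 with 0.8 µg and 749.5, 567 and 661 with 80 µg, and the groups overlapped each other and control. Without 0.8 µg 24 h replicate 3, the highest of its group, Ddit4 was called lower than control at 24 h with 0.8 µg (-1.09, adjusted p = 0.0314). Against control Ddit4 was 6.07-fold lower at 4 h with 0.8 µg (-2.60 ± 0.41, adjusted p = 1.58e-09) and 16.3-fold lower with 80 µg (-4.03 ± 0.42, adjusted p = 9.67e-21).

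**Figure D2:**
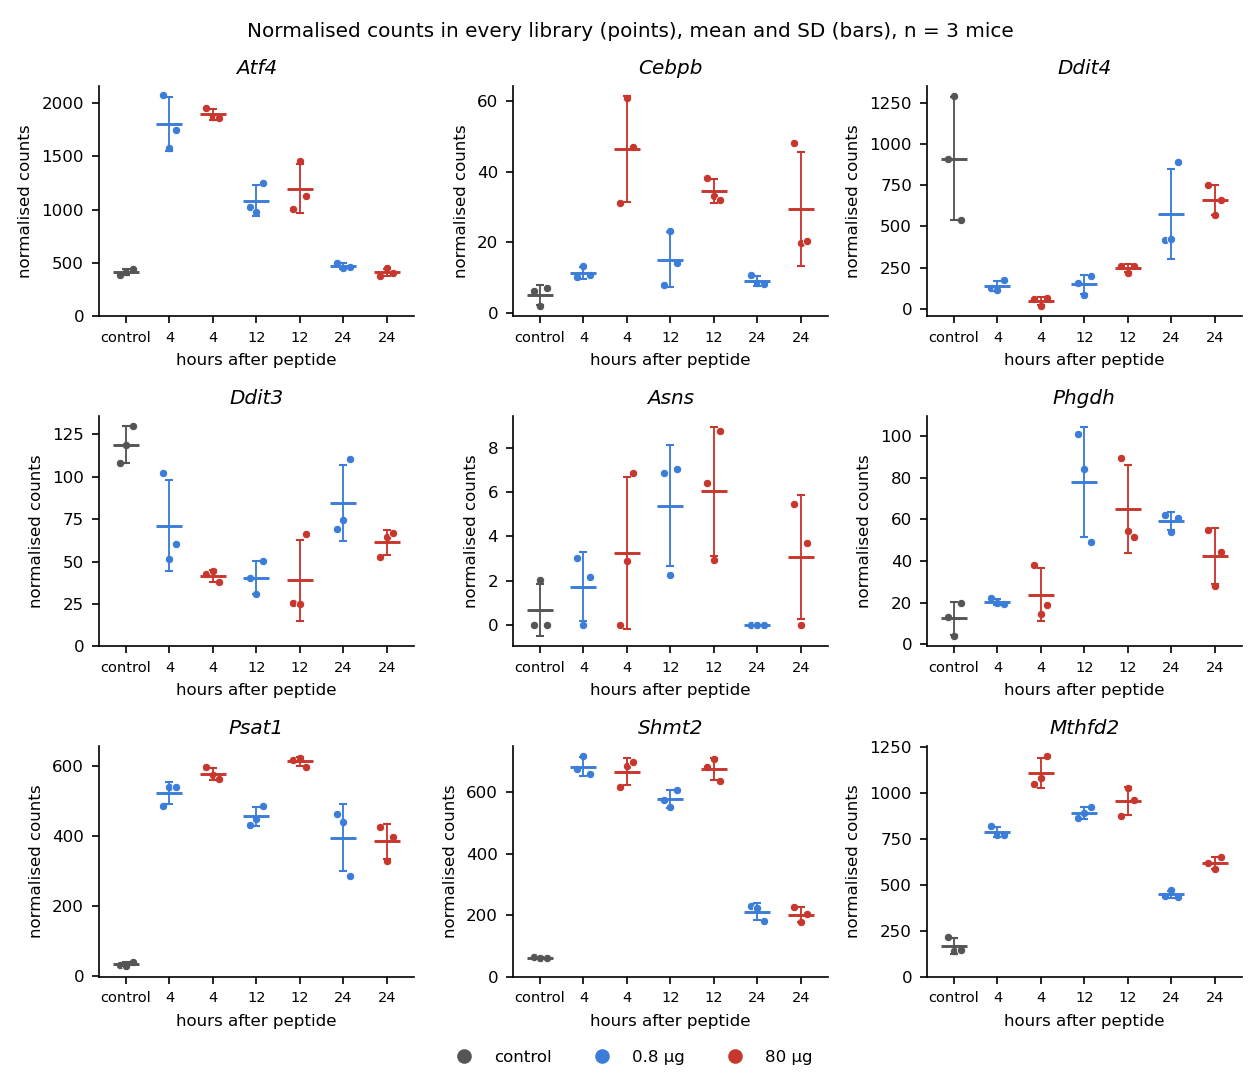
Normalised read counts of 9 members in every library, on a linear axis for each gene, in control and in the groups of 0.8 µg and 80 µg at 4 h, 12 h and 24 h. Points are single mice, and the line and bar give the mean and SD of 3. Psat1, Shmt2 and Mthfd2 are above control in all 18 immunised libraries, Atf4 is highest at 4 h and near control at 24 h, and Cebpb separates by dose at each time.

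Among the amino acid enzymes, the serine pathway showed its steps at different times. Phgdh, Psat1 and Psph catalyse its consecutive steps from 3-phosphoglycerate. Of the 8 amino acid synthesis genes tested (7 at 24 h with 0.8 µg, where Gpt2 had no adjusted p) 4, 6 and 2 were called higher at 4 h, 12 h and 24 h with 0.8 µg and 4, 6 and 4 with 80 µg, and Psph was the only one called lower, at 4 h with 0.8 µg. Of all genes 17.3%, 17.2% and 11.5% were called higher with 0.8 µg and 18.4%, 17.8% and 12.3% with 80 µg. The list's median log2 fold change was 1.48, 2.31 and 0.85 with 0.8 µg and 1.70, 2.12 and 1.24 with 80 µg. Gpt2, whose control libraries were at 0, enters these medians with a fitted value. With its bound against a floor of 3 counts over the control group in place of that value, the medians were 1.31 and 2.09 at 4 h and 12 h with 0.8 µg and 1.55 at 4 h with 80 µg, and without it that at 24 h with 80 µg was 1.30.

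Psat1 (ENSMUSG00000024640, chr19:15904678-15947337, minus strand), the phosphoserine aminotransferase, showed the largest log2 fold changes of all members. It held 33.0, 29.4 and 41.4 normalised counts in control. It held 488, 541 and 542 at 4 h with 0.8 µg and 597, 576 and 562 with 80 µg. All immunised libraries were at least 287. At 12 h it held 433, 449.8 and 486 with 0.8 µg and 618, 624 and 599 with 80 µg. At 24 h it held 462, 439 and 287 with 0.8 µg and 427, 329.7 and 398 with 80 µg, so that unlike Atf4 it stayed far above control. The log2 fold change against control was 3.89 ± 0.20, adjusted p = 3.81e-82 at 4 h with 0.8 µg, and at 24 h it was still 3.49 ± 0.20, adjusted p = 3.35e-65 with 0.8 µg and 3.44 ± 0.20, adjusted p = 4.72e-64 with 80 µg.

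Phgdh (ENSMUSG00000053398, chr3:98313170-98339990, minus strand), the dehydrogenase of the first step, rose later. Control libraries held 13.4, 4.06 and 20.0 normalised counts. At 4 h Phgdh held 22.2, 19.8 and 19.4 with 0.8 µg and 38.2, 14.5 and 18.9 with 80 µg, which overlapped the control range. Without control replicate 3, the highest, both comparisons at 4 h were called (1.08, adjusted p = 0.0472, with 0.8 µg and 1.26, adjusted p = 0.0170, with 80 µg). With 80 µg Phgdh was called at 4 h also without 80 µg 4 h replicate 2 (1.16, adjusted p = 0.0264). At 12 h it held 101, 84.2 and 49.3 with 0.8 µg and 89.5, 54.3 and 51.5 with 80 µg. At 24 h it held 62.3, 54.1 and 60.9 with 0.8 µg and 54.8, 28.0 and 44.4 with 80 µg. All libraries of 12 h and 24 h were above all of control. The log2 fold change against control was 0.71 ± 0.44, adjusted p = 0.163 at 4 h and 2.57 ± 0.42, adjusted p = 4.72e-09 at 12 h with 0.8 µg, and 0.90 ± 0.44, adjusted p = 0.0639 and 2.31 ± 0.42, adjusted p = 1.66e-07 with 80 µg. The rise from 4 h to 12 h was itself called at both doses (1.86 ± 0.39, adjusted p = 1.67e-05, and 1.41 ± 0.38, adjusted p = 0.000951).

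Psph, the phosphatase of the last step, lay below every control library in each library of 4 h and above every one in each library of 12 h. It held 42.8 to 56.7 normalised counts in control, 5.27 to 34.9 in the 6 libraries of 4 h and 63.7 to 132 in the 6 libraries of 12 h. Psph was called lower at 4 h with 0.8 µg (-1.68 ± 0.34, adjusted p = 2.89e-06), while with 80 µg it passed by the adjusted p but lay just inside the fold limit (-0.98 ± 0.31, adjusted p = 0.00339). With 80 µg it was called lower with unshrunken values (-1.01), under scaling to library totals (-1.25) and without control replicate 3 (-1.09) or 80 µg 4 h replicate 2 (-1.23). It was called higher at 12 h with 80 µg (1.17 ± 0.28, adjusted p = 8.49e-05). From 4 h to 12 h it rose by 2.35 ± 0.33, adjusted p = 2.98e-11 with 0.8 µg and by 2.15 ± 0.29, adjusted p = 5.16e-12 with 80 µg on the log2 scale.

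Got1, the cytosolic aspartate aminotransferase, was highest at 12 h, at 232 to 271 normalised counts with 0.8 µg and 281 to 377 with 80 µg against 45.6 to 53.6 in control (2.37 ± 0.22, adjusted p = 1.26e-26, and 2.67 ± 0.21, adjusted p = 5.01e-34). Aldh18a1, which makes the proline precursor, was higher at 4 h at 43.5 to 59.3 with 0.8 µg and 56.7 to 62.0 with 80 µg against 12.8 to 19.3 (1.65 ± 0.38, adjusted p = 4.16e-05, and 1.81 ± 0.37, adjusted p = 5.03e-06). Its call at 12 h with 80 µg was lost without control replicate 1 (0.95) or 3 (0.87) or 80 µg 12 h replicate 1 (0.79). Scaling to library totals also ended it (0.88). Pycr1, the mitochondrial proline-making reductase, held 1, 0 and 0 raw counts in control against 14, 16 and 14 at 12 h with 0.8 µg and 9, 38 and 25 with 80 µg, and was called higher in 5 of 6 comparisons. At 24 h with 80 µg its raw counts were 19, 1 and 13, and the call was lost without 80 µg 24 h replicate 1 (adjusted p = 0.0535).

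Asns (ENSMUSG00000029752, chr6:7675169-7693254, minus strand), a commonly cited ATF4 target, was close to the limit of detection, with 65 counts over all libraries. Its raw counts were 0, 2 and 0 in control, 3, 0 and 2 at 4 h with 0.8 µg and 0, 3 and 8 with 80 µg. At 12 h they were 7, 3 and 6 with 0.8 µg and 7, 4 and 9 with 80 µg, above every control library. At 24 h they were 0, 0 and 0 with 0.8 µg and 5, 0 and 6 with 80 µg. Asns was not called in any comparison with control, with adjusted p of 0.118 and 0.0946 at 12 h, so that a difference was not detectable at this depth. Without control replicate 2, the only control library with counts, Asns was called higher at 12 h at both doses (adjusted p = 0.0429 and 0.0338). Gpt2, the mitochondrial alanine aminotransferase, held 37 counts in all, 0, 0 and 0 in control and 1, 7 and 5 at 12 h with 0.8 µg, the only comparison in which it was called (adjusted p = 0.0444), and this call was lost without any 1 of the control libraries or of 0.8 µg 12 h replicates 2 and 3 (adjusted p between 0.0738 and 0.118). Cth held all 6 of its counts, and Chac1 6 of its 8, in libraries of 12 h.

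The folate enzymes rose together. All 4 that were tested were called higher than control at each time and dose, and the 12 libraries of 4 h and 12 h were above those of 24 h for each of Shmt2, Mthfd2, Mthfd1l and Mthfd1. The call of Mthfd1 at 24 h with 0.8 µg was lost without control replicate 2 (0.97) or 0.8 µg 24 h replicate 2 (0.97). The median log2 fold change of the 4 was 2.34, 2.63 and 1.53 with 0.8 µg, and 2.65, 2.75 and 1.50 with 80 µg.

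Shmt2 (ENSMUSG00000025403, chr10:127517123-127522444, minus strand), the mitochondrial serine hydroxymethyltransferase, held 63.9, 60.8 and 61.4 normalised counts in control. It held 674, 715 and 658 at 4 h with 0.8 µg and 617, 685 and 696 with 80 µg. This is a 10.8-fold and a 10.6-fold rise (3.43 ± 0.15, adjusted p = 1.44e-114, and 3.40 ± 0.15, adjusted p = 4.02e-113). At 12 h it held 575, 549.8 and 606 with 0.8 µg and 681, 707 and 635 with 80 µg. At 24 h it held 231, 223 and 179.6 with 0.8 µg and 226, 178 and 202 with 80 µg, still above control (1.75 ± 0.16, adjusted p = 1.62e-27, and 1.67 ± 0.15, adjusted p = 7.46e-26). From 12 h to 24 h Shmt2 fell by 1.44 with 0.8 µg and by 1.74 with 80 µg on the log2 scale. Its last 32 bases lie opposite an exon of Ndufa4l2, and reads there cannot be assigned with certainty.

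Mthfd2 (ENSMUSG00000005667, chr6:83305691-83325908, minus strand), the mitochondrial methylenetetrahydrofolate dehydrogenase, differed in part by dose. It held 214, 138 and 146 normalised counts in control. At 4 h it held 821, 771 and 770.5 with 0.8 µg and 1047, 1081 and 1199 with 80 µg, and the groups did not overlap. At 12 h it held 862, 889.8 and 923 with 0.8 µg and 876, 1026 and 961 with 80 µg, which overlapped. At 24 h it held 438, 470.0 and 436 with 0.8 µg and 618, 584 and 653 with 80 µg, again apart. Against control Mthfd2 rose 4.68-fold at 4 h with 0.8 µg (2.23 ± 0.12, adjusted p = 1.89e-73) and 6.6-fold with 80 µg (2.72 ± 0.12, adjusted p = 4.96e-112).

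Mthfd1l, the mitochondrial formyltetrahydrofolate synthetase, held 84.5 to 118 normalised counts in control and 419 to 618 in the 12 libraries of 4 h and 12 h, with log2 fold changes between 2.22 and 2.58 at these times. Mthfd1, the cytosolic trifunctional enzyme, held 49.7 to 85.6 in control, 311 to 393 at 4 h and 426 to 549 at 12 h, where it stood 2.86 and 2.92 above control on the log2 scale with 0.8 µg and 80 µg. Summed over the folate list, CPM went from 104 to 134 in control to between 580 and 821 in the libraries of 4 h and 12 h, and to between 286 and 328 at 24 h.

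The cytosolic synthetases rose almost as a block. Their summed CPM were 1041 to 1124 in the control libraries, 3880 to 3983 at 4 h with 0.8 µg and 3699 to 3885 with 80 µg. They were 3943 to 4052 at 12 h with 0.8 µg and 3989 to 4129 with 80 µg. At 24 h they were 1674 to 1920 with 0.8 µg and 1565 to 1596 with 80 µg. The group means were thus 3.49 to 3.70 times the control mean at 4 h and 12 h, and 1.64 and 1.45 times at 24 h. The median log2 fold change of the 20 genes was 2.06, 1.99 and 0.82 with 0.8 µg and 2.00, 1.91 and 0.77 with 80 µg.

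At 4 h the log2 fold changes ran up to 2.55 for Eprs, the glutamyl-prolyl-tRNA synthetase, with 0.8 µg (3351 ± 169 against 568 ± 31.6 normalised counts, mean ± SD, n = 3), and up to 2.48 for Aars with 80 µg (735 ± 20.7 against 131 ± 5.44). Rars, for arginine, was 2.52 with 0.8 µg and 2.38 with 80 µg. Iars, Gars and Tars, whose windows are printed above, were 2.24, 2.18 and 2.22 with 0.8 µg and 2.46, 2.06 and 2.37 with 80 µg. Eprs, Kars, Farsa and Farsb, which lack the motif in their windows, were 2.55, 2.23, 1.89 and 2.09 with 0.8 µg. Sars, Dars and Qars, which lack it too, were the lowest of the synthetases, at 1.06, 0.88 and -0.17. The synthetases for cysteine (Cars), histidine (Hars), leucine (Lars), methionine (Mars), asparagine (Nars), valine (Vars), tryptophan (Wars) and tyrosine (Yars) lay between 1.49 and 2.28 with 0.8 µg. The smallest of the called increases were those of Sars, for serine, at 1.06 and 1.09, and Sars lost its call at 4 h at both doses when counts were scaled to library totals (0.81 and 0.81), and with 0.8 µg without 0.8 µg 4 h replicate 1 (0.99). At 12 h with 0.8 µg Sars lost its call under that scaling (0.92) and without 0.8 µg 12 h replicate 3 (0.84). Aars shares its last 500 bases with Exosc6 on the same strand, and Farsb and Yars share 248 and 30 bases at their ends with genes on the other strand, so their counts may hold reads of these neighbours.

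The synthetases not called at 4 h were Dars and Qars. Dars, for aspartate, held 196 to 220.1 normalised counts in control and 309 to 428 at 4 h, and its log2 fold changes were 0.88 ± 0.15, adjusted p = 2.11e-08 with 0.8 µg and 0.65 ± 0.15, adjusted p = 5.15e-05 with 80 µg, under the fold limit. Dars was called at 12 h at 1.10 and 1.10, calls that scaling to library totals ended (0.98 and 0.96). Qars, for glutamine, held 184 to 201 in control and 165 to 192 at 4 h, with 95% intervals of -0.47 to 0.12 and -0.31 to 0.27 on the unshrunken log2 scale. It held 224 to 285 at 12 h and 261 to 419.7 at 24 h, and was called at 24 h with 80 µg alone (1.08 ± 0.14, adjusted p = 9.32e-14), though not under scaling to library totals (0.91). Qars was the only synthetase whose group mean was highest at 24 h, at both doses. With 0.8 µg the mean was highest at 4 h for 11 of the 20 and at 12 h for 8, and with 80 µg for 9 and 10. At 24 h Aars, Gars, Kars, Mars and Vars were called higher than control at both doses, Farsb, Rars and Wars with 0.8 µg, and Qars with 80 µg. Several of these lay close to the fold limit. Mars with 80 µg lost its call without control replicate 2 (0.83) or 3 (0.999) or 80 µg 24 h replicate 3 (0.96), with only the 6 libraries compared (0.99) and under scaling to library totals (0.84). Wars with 0.8 µg lost it without control replicate 1 (0.86) or 0.8 µg 24 h replicate 2 (0.83), with only those 6 libraries (0.98) and under that scaling (0.91), and Farsb without control replicate 1 (0.99) and under that scaling (0.96).

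Vars, for valine, kept its level to 24 h. It held 83.5 to 114 normalised counts in control, 275 to 378 at 4 h, 363 to 508 at 12 h and 362 to 449 at 24 h. The log2 fold change of Vars at 24 h was 2.04 ± 0.16, adjusted p = 1.83e-36 with 0.8 µg and 1.97 ± 0.16, adjusted p = 3.02e-34 with 80 µg, and the change from 12 h to 24 h had 95% intervals of -0.31 to 0.23 and -0.29 to 0.24 on the unshrunken log2 scale. Iars and Farsa, for isoleucine and phenylalanine, were near control again at 24 h, and their log2 fold changes were 0.37 and 0.13 with 0.8 µg and 0.06 and 0.07 with 80 µg.

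The mitochondrial synthetases did not move in this way as a list. Of 17 tested, 3, 3 and 0 were called higher and 2, 0 and 1 lower at 4 h, 12 h and 24 h with 0.8 µg, and 2, 3 and 2 were higher and 2, 1 and 3 lower with 80 µg. A count of 3 of 17 is near the share of all genes called higher at those times, 17.2% to 18.4%. Of the lower calls, 2 of 17 at 4 h stand beside 23.4% and 25.1% of all genes, and 3 of 17 at 24 h with 80 µg beside 7.91%. The list's median log2 fold change was 0.09, 0.17 and 0.15 with 0.8 µg and -0.06, 0.21 and 0.14 with 80 µg. Nars2, for mitochondrial asparagine, was lower than control at 24 h, at 14.1 ± 1.76 normalised counts with 0.8 µg and 12.1 ± 6.82 with 80 µg against 52.0 ± 5.70. Yars2, Sars2 and Rars2, which were singled out after their values were seen, rose. Yars2, for mitochondrial tyrosine, was called higher at 4 h (2.48 ± 0.24 with 0.8 µg, and 202 ± 4.71 against 35.4 ± 11.3 normalised counts with 80 µg) and at 12 h (1.98 ± 0.25 and 2.33 ± 0.24), as was Sars2, for serine, at both times (1.13 to 1.42) and at 24 h with 80 µg (1.26), and Rars2, for arginine, at 12 h (1.58 and 1.21). Wars2, for mitochondrial tryptophan, was lower with 80 µg than with 0.8 µg at 24 h (-1.27 ± 0.39, adjusted p = 0.0254). It held 13.9 ± 7.59 against 34.4 ± 6.62 normalised counts, and was the 1 of 17 in its list called there, beside 1.56% of all genes. Whether this call holds under other settings was not examined.

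**Figure D3:**
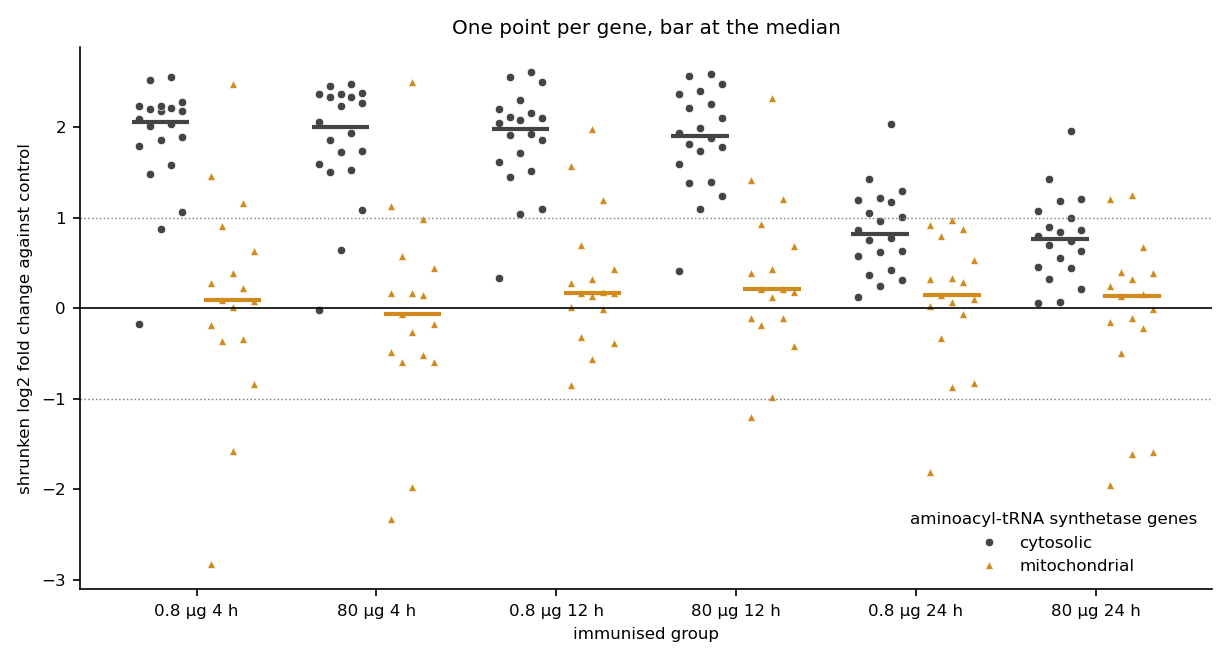
Shrunken log2 fold change against control of the 20 cytosolic and 17 mitochondrial aminoacyl-tRNA synthetases in the 6 immunised groups. Each point is 1 gene and each bar the list's median, which is 2.06 for the cytosolic and 0.09 for the mitochondrial list at 4 h with 0.8 µg.

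Between times, fewer members were called from 4 h to 12 h than from 12 h to 24 h. From 4 h to 12 h 3 of 39 members rose and 1 fell with 0.8 µg, beside 12.6% and 7.98% of all genes, and 3 of 39 rose and 1 fell with 80 µg, beside 15.7% and 9.10%. By the adjusted p alone, without the fold limit, 14 members passed from 4 h to 12 h with 0.8 µg and 21 with 80 µg. Phgdh and Psph rose and Atf5 fell at both doses, while the third that rose was Got1 with 0.8 µg (1.06 ± 0.19, adjusted p = 4.78e-07), a call lost without 0.8 µg 4 h replicate 2, and Ddit4 with 80 µg (2.22 ± 0.42, adjusted p = 9.65e-07). From 12 h to 24 h 2 of 40 rose and 18 fell with 0.8 µg, beside 17.1% and 9.48% of all genes, and 2 rose and 18 fell with 80 µg, beside 16.7% and 10.5%.

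Those that fell included 12 and 13 of the 20 synthetases at 0.8 µg and 80 µg, and Atf4 (-1.19 ± 0.13, adjusted p = 3.06e-19, and -1.53 ± 0.13, adjusted p = 1.58e-31). Iars fell by 1.73 and by 1.88, Mthfd1 by 1.73 and by 1.67, and Got1 by 1.52 and by 1.38 (log2 units, 0.8 µg and then 80 µg). Ddit4 rose at both doses (1.88 ± 0.41, adjusted p = 2.59e-05, and 1.36 ± 0.41, adjusted p = 0.00292), beside Ddit3 with 0.8 µg (1.05 ± 0.32, adjusted p = 0.00369) and Trib3 with 80 µg (adjusted p = 0.024). The call of Ddit3 was lost without 0.8 µg 12 h replicate 2 (0.87) or 0.8 µg 24 h replicate 3 (0.82), and with only the 6 libraries compared (0.96). With 80 µg the rise of Ddit3 was called without 80 µg 12 h replicate 3 (1.24, adjusted p = 0.000527). The call of Trib3 was lost without replicate 1 or 2 of 80 µg 12 h or replicate 1 or 3 of 80 µg 24 h (adjusted p between 0.0501 and 0.149). Comparisons of successive times share the groups of 12 h.

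The question of the design was whether the strength of the stimulus changes the response of cells at the same Timer stage, and the members called by dose were about as few as the share over all genes would give. At 4 h 2 of 37 members tested were called between 80 µg and 0.8 µg, beside 5.85% of all genes, and 4 passed by the adjusted p alone, beside 12.0%. At 12 h 0 of 37 were called, beside 2.79%, and 1 passed by the adjusted p alone, beside 6.27%. DESeq2 gave 3 members with an unadjusted p under 0.05 at 12 h, and edgeR likewise called 0. At 24 h 1 of 36 was called, beside 1.56%, and 3 passed by the adjusted p alone, beside 5.93%. The median log2 fold change between doses was 0.02, 0.06 and -0.05 over the members, beside -0.02, 0.01 and 0.02 over all genes.

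Cebpb was called higher with 80 µg at 4 h (1.94 ± 0.46, adjusted p = 0.000623) and 24 h (1.56 ± 0.47, adjusted p = 0.0229), and at 12 h the difference was 1.11 ± 0.44, adjusted p = 0.134. The unshrunken 95% intervals were 1.08 to 3.01, 0.25 to 2.09 and 0.67 to 2.65 at 4 h, 12 h and 24 h, in each case with all 3 libraries of 80 µg above all 3 of 0.8 µg. The call at 24 h was lost without any 1 of the 3 libraries of 0.8 µg (adjusted p = 0.0562, 0.104 and 0.0922 without replicates 1, 2 and 3) and without 80 µg 24 h replicate 1, the highest of its group, where the log2 fold change was 1.06. It was lost also when only the 6 libraries compared were fitted (0.76, adjusted p = 0.0741).

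Ddit4 was called lower with 80 µg at 4 h (-1.43 ± 0.43, adjusted p = 0.00914, 2.69-fold), with an unshrunken interval of -2.39 to -0.63. At 12 h the difference was 0.70 ± 0.41, adjusted p = 0.409 and at 24 h 0.19 ± 0.41, adjusted p = 0.883. The call at 4 h was lost without 0.8 µg 4 h replicate 3 (-1.27, adjusted p = 0.0896) and without 80 µg 4 h replicate 2, the lowest library (-1.04, adjusted p = 0.0797). Below the fold limit, Mthfd2 passed by the adjusted p at 4 h (0.49 ± 0.10, adjusted p = 4.27e-05, 1.41-fold) and at 24 h (0.46 ± 0.11, adjusted p = 0.000897, 1.38-fold), where the groups did not overlap, and at 12 h its difference was 0.10 ± 0.10, adjusted p = 0.719. Got1 passed likewise at 4 h (0.60 ± 0.20, adjusted p = 0.0246), Psat1 at 12 h (0.43 ± 0.14, adjusted p = 0.0349) and Rars at 24 h (-0.43 ± 0.13, adjusted p = 0.0214).

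For the synthetases the data bound the effect of dose on each gene to less than 2-fold, and smaller differences were not excluded. At 24 h Rars passed by the adjusted p alone (-0.43). The list's summed CPM there were 1674 to 1920 with 0.8 µg and 1565 to 1596 with 80 µg. The 95% interval of the unshrunken difference lay within 2-fold in either direction for all 20 at each time, and for all 4 folate enzymes. Its outermost bounds for the synthetases were -0.62 for Mars and 0.69 for Cars at 4 h, -0.58 for Yars and 0.49 for Sars at 12 h, and -0.69 for Rars and 0.59 for Qars at 24 h. Over all members tested, 29 of 37, 29 of 37 and 30 of 36 intervals lay within 2-fold at the 3 times, against 54.0%, 58.7% and 70.7% of all genes, a share that also depends on how many counts a gene has. Intervals were wider for the regulators, from -2.39 for Ddit4 to 3.01 for Cebpb at 4 h.

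**Figure D4:**
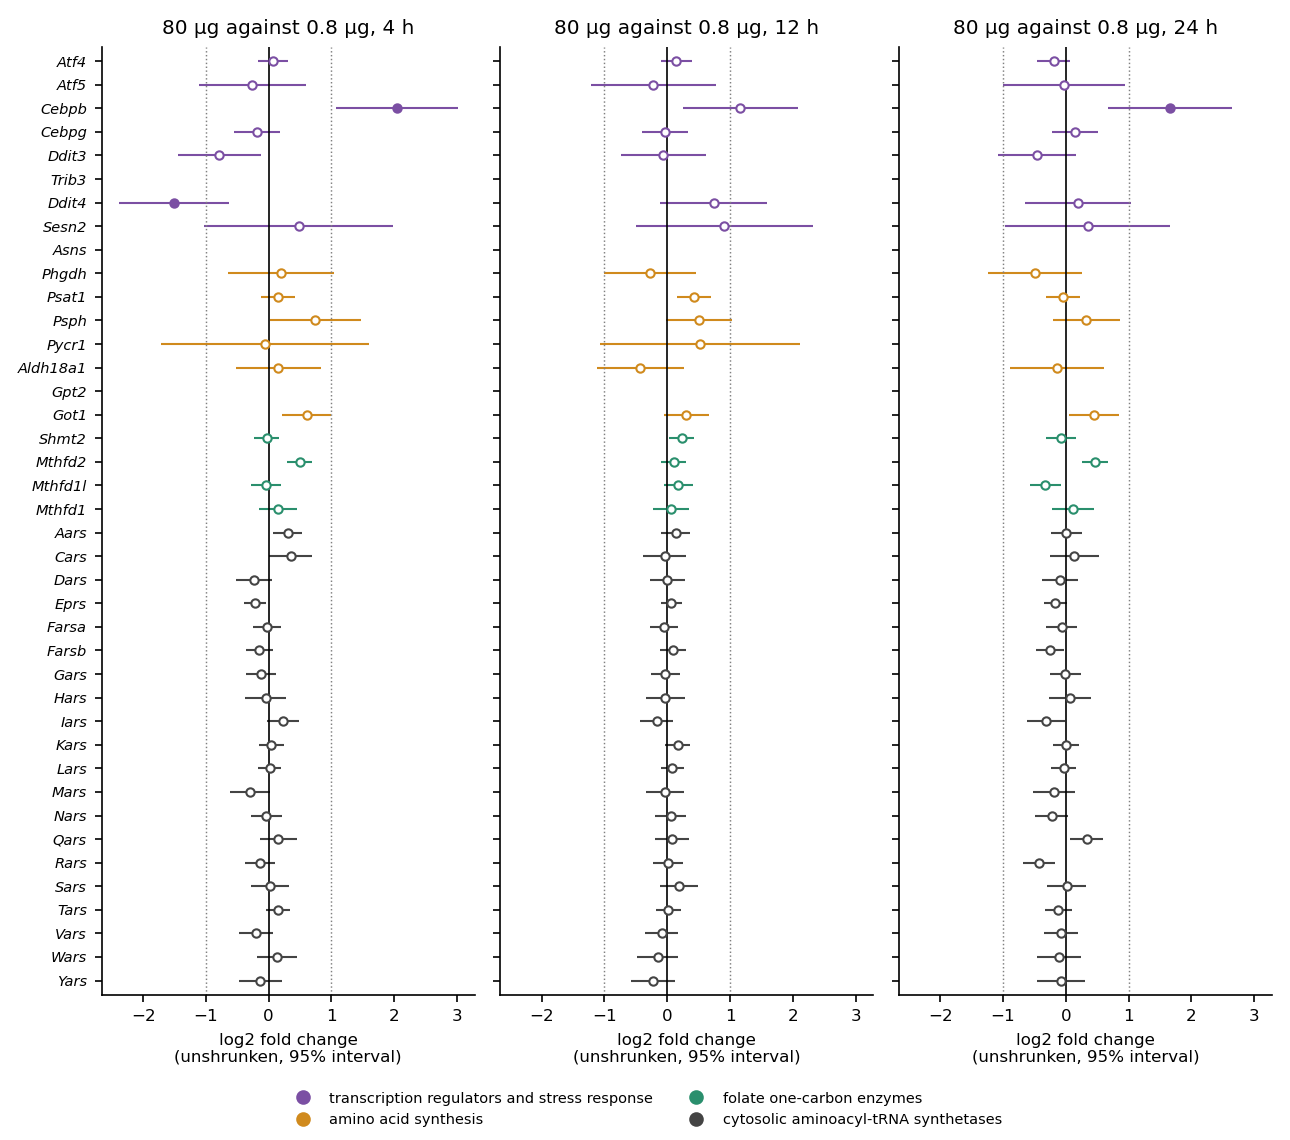
Unshrunken log2 fold change of 80 µg against 0.8 µg with its 95% interval, for each member at 4 h, 12 h and 24 h, grouped by role. Filled points were called, dotted lines mark 2-fold, and members without an adjusted p are left blank. Filled points are Cebpb and Ddit4 at 4 h and Cebpb at 24 h, and the intervals of the synthetases lie between the dotted lines.

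A change of the dose difference with time was tested for over the 18 immunised libraries. Of 37 members tested 2 passed, Ddit4 (adjusted p = 0.0101) and Mthfd2 (adjusted p = 0.0251), a share below the 10.4% of all genes. For Ddit4 the estimated dose effect was negative at 4 h and positive at 12 h, where it was not called. For Mthfd2 the dose effect was positive at the 3 times and smallest at 12 h. Without 0.8 µg 4 h replicate 3 the adjusted p was 0.0629 for Ddit4 and 0.0636 for Mthfd2, so that 0 members passed. Mthfd2 was past the threshold no more without any 1 of 6 libraries in all (adjusted p up to 0.113) or with edgeR (adjusted p = 0.208). Cebpb, with its dose difference at 4 h and 24 h, had an adjusted p of 0.708 in this test.

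Other genes of these pathways were described as lists, and the genes named from them were those with the largest changes. Shmt1 stands in both the one-carbon and the serine list and Nars2 in both the mitochondrial and the ATF4 list, so these lists are not separate. Of the other one-carbon, folate and methionine genes 10 of 20 were called higher and 3 lower at 4 h with 0.8 µg, and 9 higher and 6 lower with 80 µg, beside the shares of 17.3% and 23.4%, and of 18.4% and 25.1%, of all genes given above. At 12 h 12 of 20 were higher and 0 lower with 0.8 µg, and 12 of 21 higher and 3 lower with 80 µg. At 24 h 8 of 20 were higher and 0 lower with 0.8 µg, and 5 of 20 higher and 1 lower with 80 µg. Of all genes, 17.2% were higher and 20.5% lower at 12 h with 0.8 µg and 17.8% and 20.1% with 80 µg, and 11.5% and 5.84%, and 12.3% and 7.91%, at 24 h. The median log2 fold change of this list was 1.02, 1.45 and 0.24 with 0.8 µg and 0.90, 1.43 and 0.21 with 80 µg. Shmt1, the cytosolic counterpart of Shmt2, rose from 9.59 ± 2.95 normalised counts in control to 938 ± 21.6 at 4 h with 0.8 µg and 1059 ± 48.2 with 80 µg (6.45 ± 0.28, adjusted p = 3.23e-104, and 6.62 ± 0.28, adjusted p = 4.32e-110). Slc19a1, the reduced folate carrier, rose at 4 h to 853 ± 21.1 with 0.8 µg and 900.2 ± 57.0 with 80 µg from 45.3 ± 19.5. Tyms, the thymidylate synthase of DNA synthesis, was highest at 24 h instead, and went from 32.8 ± 2.31 in control to 489 ± 23.2 at 24 h with 80 µg.

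Of 25 eIF2 kinases, phosphatases and other genes of the ATF4 pathway, 6 were called higher and 6 lower at 4 h with 0.8 µg, and 10 higher and 4 lower with 80 µg. At 12 h 7 were higher and 5 lower at either dose, and at 24 h 3 higher and 1 lower with 0.8 µg and 4 higher and 2 lower with 80 µg. The shares of all genes were 17.3% higher and 23.4% lower at 4 h, 17.2% and 20.5% at 12 h and 11.5% and 5.84% at 24 h with 0.8 µg, and 18.4% and 25.1%, 17.8% and 20.1%, and 12.3% and 7.91% with 80 µg. The count furthest from its share is the 10 of 25 higher at 4 h with 80 µg. Its median log2 fold change lay between 0.00 and 0.47 over the 6 comparisons with control. Trib1, a relative of Trib3, differed by dose at all 3 times and was lower with 80 µg, at 394 ± 49.7 against 1068 ± 119 with 0.8 µg at 4 h (-1.43 ± 0.16, adjusted p = 8.01e-18), -1.38 ± 0.16, adjusted p = 5.44e-15 at 12 h and -1.06 ± 0.19, adjusted p = 2.1e-06 at 24 h. It stood at 25.8 ± 8.05 in control. Sesn1, a relative of Sesn2, was lower than control at 4 h, at 13.5 ± 8.92 with 0.8 µg and 12.9 ± 6.53 with 80 µg against 272 ± 41.5. Ppp1r15a, the stress-induced subunit of the eIF2 phosphatase, fell from 4 h to 12 h by 2.05 with 0.8 µg and by 3.01 with 80 µg on the log2 scale. Of the 11 partners of the synthetase complex and of transfer RNA editing, 4, 3 and 1 were called higher at 4 h, 12 h and 24 h with 0.8 µg and 4, 6 and 1 with 80 µg, and 0 lower in any of them, beside 17.2% to 18.4% of all genes higher at 4 h and 12 h and 11.5% and 12.3% at 24 h, so that the single gene at 24 h is near that share. Eef1e1, which belongs to the complex, rose to 349.8 ± 55.7 at 12 h with 0.8 µg and 291 ± 9.79 with 80 µg from 28.4 ± 6.07. Of 16 other serine, proline, glutamine and aspartate genes 4 were higher and 4 lower at 4 h with 0.8 µg, and 3 higher and 5 lower with 80 µg, near the shares of all genes. At 12 h 4 were higher and 3 lower with 0.8 µg, and 6 higher and 1 lower with 80 µg. At 24 h 3 were higher and 0 lower with 0.8 µg, and 5 higher and 1 lower with 80 µg, so that with 80 µg more were higher at 12 h and 24 h than the shares of 17.8% and 12.3% would give. Over the 6 comparisons with control the median log2 fold change lay between -0.20 and 0.44. Ass1, which makes argininosuccinate from aspartate, was higher with 80 µg than with 0.8 µg at 24 h (1.09 ± 0.33, adjusted p = 0.0235). It was the 1 of 13 tested in its list called there, beside 1.56% of all genes. Whether this call holds under other settings was not examined.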

How the data were processed

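Libraries of 3' ends were prepared with the Lexogen QuantSeq 3' FWD kit from PicoPure RNA of sorted cells, 1 per mouse, 21 in all. Per the study's methods, the authors trimmed reads with Bbduk, aligned them with STAR 2.5.2a to the mouse genome mm10, counted reads per gene with HTSeq-count and ran DESeq2. Annotation release, strand setting and molecular identifiers are not given in the sources used here. The deposited table of raw counts per gene was analysed. The deposited table of log2-scale (rlog) values from the authors' DESeq2 run served only to pair gene identifiers with names. Because the kit reads transcript ends, counts follow the annotated 3' end, and levels were not compared between genes.

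Counts were fitted with DESeq2 1.42.0 (R 4.3.3) with 1 coefficient per group over all 21 libraries, after removing genes under 10 counts in all. Wald tests were adjusted by Benjamini-Hochberg over all genes with an adjusted p in a comparison, the normal prior served to shrink log2 fold changes, and genes were called at an adjusted p under 0.05 and a log2 fold change above 1 in size. Values after ± are SE for log2 fold changes and SD (n = 3) for normalised read counts, which are counts divided by DESeq2's size factors. Intervals are 95% Wald intervals of unshrunken values. The interaction of dose and time was a likelihood ratio test over 18 libraries. The steps were tested on simulated data. Promoter windows were searched and tables joined in Python 3.11.15 with pandas 2.3.3, and figures drawn with matplotlib 3.10.9.

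Depth was 2352800 to 6244279 counts per library, and floors and intervals of low counts cover counting error and the spread between mice at best. Members and lists were chosen with earlier results of these data known. Members called between doses or in the interaction were named with values in every library, beside a fixed set of Atf4, Asns, Phgdh, Psat1, Shmt2 and Mthfd2, and of the other lists up to 3 genes in each direction per comparison could be named, taking called genes whose mean normalised count reached 20, largest shrunken change first. Alternatives were edgeR 4.0.16 with TMM, TMM size factors, every gene with at least 1 count, unshrunken fold changes, no fold limit, only the libraries compared, the replicate number as a block, and each library left out. Scaling to library totals without Gm42418 and 2 mitochondrial ribosomal genes was added after the data were seen. The alternatives were examined for the members only, and not for genes of the other lists.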

Additional observations from a re-analysis of the deposited data

Results flagged for a closer look

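In the test of the interaction 2 of 37 members passed, a share below the 10.4% of all genes. The dose difference of Ddit4 changed with time in this test (adjusted p = 0.0101), being negative at 4 h and positive, though not called, at 12 h. The dose difference of Mthfd2 also changed with time (adjusted p = 0.0251), being larger at 4 h and 24 h than at 12 h, but this was lost with edgeR (adjusted p = 0.208) and without any 1 of 6 libraries (0.0521 to 0.113). That of Ddit4 was lost without 0.8 µg 4 h replicate 3 (0.0629). No separate search for outlying libraries was made in the groups of 3 mice.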

How the results depend on the processing

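Over the alternatives, 6899 log2 fold changes of members kept their direction and their side of the threshold, 75 lost and 124 gained a call, and 0 were reversed. Counts of members called moved by more than 1.5 times in 7 comparisons without the fold limit, and otherwise between doses and in the interaction. By the adjusted p alone they were 4, 1 and 3 between doses at 4 h, 12 h and 24 h, 23 and 26 at 24 h against control with 0.8 µg and 80 µg, and 14 and 21 from 4 h to 12 h. Between doses at 24 h 0 members were called with TMM size factors, where Cebpb kept its log2 fold change (1.57) but had no adjusted p, and 0 with only the 6 libraries compared, and in the interaction 1 was called with edgeR. The cause was not tested.

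Leaving out 1 library at a time gave 1 to 3, 0 to 0 and 0 to 1 members called between doses at 4 h, 12 h and 24 h, and 0 to 4 in the interaction, with 0 without 0.8 µg 4 h replicate 3 and 4 without 0.8 µg 24 h replicate 3. Against control it gave 30 to 32, 31 to 34 and 12 to 16 at the 3 times with 0.8 µg and 31 to 33, 32 to 35 and 14 to 17 with 80 µg. Between times it gave 3 to 4 and 18 to 24 with 0.8 µg, and 4 to 5 and 18 to 21 with 80 µg. Psph was called between doses at 4 h without 0.8 µg 4 h replicate 1 (1.22, adjusted p = 0.0382). The interaction of Mthfd2 was past the threshold no more with edgeR (adjusted p = 0.208) or without any 1 of 80 µg 4 h replicate 3 (0.0587), 0.8 µg 12 h replicate 2 (0.0774) or 3 (0.0699), and 80 µg 12 h replicate 1 (0.113) or 3 (0.0521).

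What same-numbered mice share beyond the number is not stated. The 39 pairs of them correlated at -0.0981 to 0.162 in their deviations from group means, 5 of 39 above 0.1. Of the 39, 14 correlated best with their own number. Deviations from means of so few mice cannot show whether such mice shared a sort or a day. With the replicate block 2, 0 and 1 members were called between doses, 31, 33 and 14 against control with 0.8 µg, 32, 34 and 15 with 80 µg, 4 and 20 between times at each dose and 2 in the interaction, so that the block ended only the call of Gpt2 at 12 h with 0.8 µg in these counts. Scaling to library totals, added after the data were seen, moved the median of all genes against control, between -0.15 and 0.00 before, to -0.36 and -0.41 at 4 h, -0.22 and -0.23 at 12 h and -0.09 and -0.16 at 24 h on the log2 scale (0.8 µg and 80 µg), with 30, 31 and 12 members called with 0.8 µg and 32, 32 and 14 with 80 µg. Depth limits Asns, Gpt2, Pycr1, Trib3, Chac1, Cth and Aldh1l2.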
